A study of Mus musculus with 6 samples.

Results

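The genes described here encode potassium, sodium and calcium channel subunits. They were measured in libraries labelled as cultured mouse oligodendrocyte progenitor cells (OPCs), the dividing precursors of myelinating oligodendrocytes. Members were chosen by symbol and by mean level, and the rule used no difference between the groups: pore-forming and modulatory subunits of potassium channels (Kcn followed by a family letter and a number), Nav alpha subunits (Scn1a and its relatives) and Nav beta subunits, and the alpha-1 subunits of calcium channels (Cacna1). Kcnj8 and Kcnj13 were left out by the rule and are given separately. Of 24421 genes listed, 101 matched, and the 73 with a mean of at least 1 CPM (gene counts scaled to a common library total) over the 6 libraries are the members; all 73 were among the 15906 genes tested. The members nearest above that limit were Kcnn4 at 1.22 CPM, Kcnj14 at 1.24 CPM, Kcnk6 at 1.45 CPM and Kcnv1 at 1.47 CPM. The nearest below were Kcnk4 at 0.936 CPM, Kcnj12 at 0.893 CPM, Kcns1 at 0.810 CPM and Kcna5 at 0.750 CPM.

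Poly(A) RNA-seq libraries came from 3 knockout samples (Prrc2b f/f; Olig2-Cre) and 3 control samples (Prrc2b f/f, without Cre), all on C57BL/6J. Both groups therefore carried floxed Prrc2b alleles, and they differ in the Cre transgene as well as in Prrc2b, so effects of the Cre and of the deletion cannot be told apart. Olig2-Cre is active in cells that express or once expressed Olig2, which are not only cells of the oligodendrocyte lineage. According to the labels, cells were dissociated from the cortex at postnatal day 4, passed over GalC-coated and then O4-coated dishes, and grown in a medium for proliferation, whereas the series' design text speaks of brain tissue. Nothing states that replicates came from separate animals or litters, or how many animals were pooled, so p-values measure the spread between these libraries.

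Voltage-gated channels open with a change of membrane potential. Sodium channels carry the rapid inward current of action potentials, calcium channels couple depolarisation to calcium entry, and potassium channels return the membrane to rest. Inward rectifier and two-pore potassium channels stay open near the resting potential and set it, while calcium-activated potassium channels link it to calcium inside the cell. OPCs are known for their electrical equipment: they receive synaptic input, hold a negative resting potential through Kir4.1, and carry voltage-gated currents that decline as they mature.

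The libraries held 26015604 to 28114968 gene counts each. Prrc2b stood at 649, 824 and 758 CPM in knockout libraries 1 to 3, against 933, 1111 and 926 CPM in control libraries 1 to 3. The groups did not overlap, and the transcript fell by 0.41 on the log2 scale with the replicate number as a block (SE 0.06, adjusted p = 0.00688, edgeR), and in all 11 alternatives with the block (adjusted p 1.42e-12 to 0.0215), although it missed the threshold without the block (adjusted p = 1, edgeR). The deposited counts cover the whole gene, so they cannot show how much of the floxed part remained. Markers fitted the OPC label in part. All 13 OPC markers were at or above 1 CPM, with a sum of 2388 to 4938 CPM in knockout libraries and 2425 to 4190 CPM in control libraries. Ptprz1 made up most of that sum, at 2722, 1514 and 2491 CPM in knockout libraries, against 2235, 1372 and 2318 CPM in control libraries. The 22 neuronal markers also summed to 3403 to 5248 CPM in knockout libraries and 4096 to 5817 CPM in control libraries, and the 12 astrocyte markers to 1831 to 3390 CPM in knockout libraries and 1586 to 2895 CPM in control libraries. The libraries thus hold RNA of several cell types, and in such bulk RNA fewer cells of a type and less RNA per cell cannot be told apart.

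No channel subunit passed the test between knockout and control. Of the 73 members, 0 were called at an adjusted p under 0.05 by edgeR's quasi-likelihood test with group as the only term, where the share of all tested genes called was 0%. The count at an unadjusted p under 0.05 was also 0 of 73, against 1.72% of all tested genes. DESeq2 and limma-voom called 0 members as well. Libraries with the same replicate number deviated from their group means together, so the number was also fitted as a block. That fit called 604 genes, or 3.80% of those tested (250 higher and 354 lower in the knockout), and 0 of the 73 members. The smallest adjusted p of a member with the block was 0.103, for Kcnj10.

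At an unadjusted p under 0.05 with the block, 5 members were higher in the knockout (Kcne2, Kcnj10, Kcnj14, Kcnj16 and Scn4b), or 6.85% of members against 8.69% of all tested genes. Another 6 were lower (Cacna1c, Cacna1h, Kcna3, Kcnc1, Kcnh4 and Kcnq3), or 8.22% against 9.50% of all tested genes. Both shares were near the background. The fitted log2 fold change, knockout over control, had a median of -0.01 over the members with or without the block, beside 0.00 over all tested genes. With the block 35 members had a value above 0 and 38 a value below 0, between -0.48 for Kcnk13 and 0.95 for Scn4b.

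The intervals say how much of a difference these libraries could have hidden. With the block, the 95% interval of the log2 fold change lay within a 2-fold change in either direction for 65 of the 73 members, and within 0.5 on the log2 scale for 39. Without the block those counts were 45 and 7, and the median half-width was 0.728 in place of 0.316. The 8 members whose blocked interval reached past 2-fold were Scn4b, Kcnj14, Kcne2, Scn7a, Kcnn4, Kcnk6, Kcns2 and Kcnv1, with group means of 8.37 CPM or less.

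**Figure D1:**
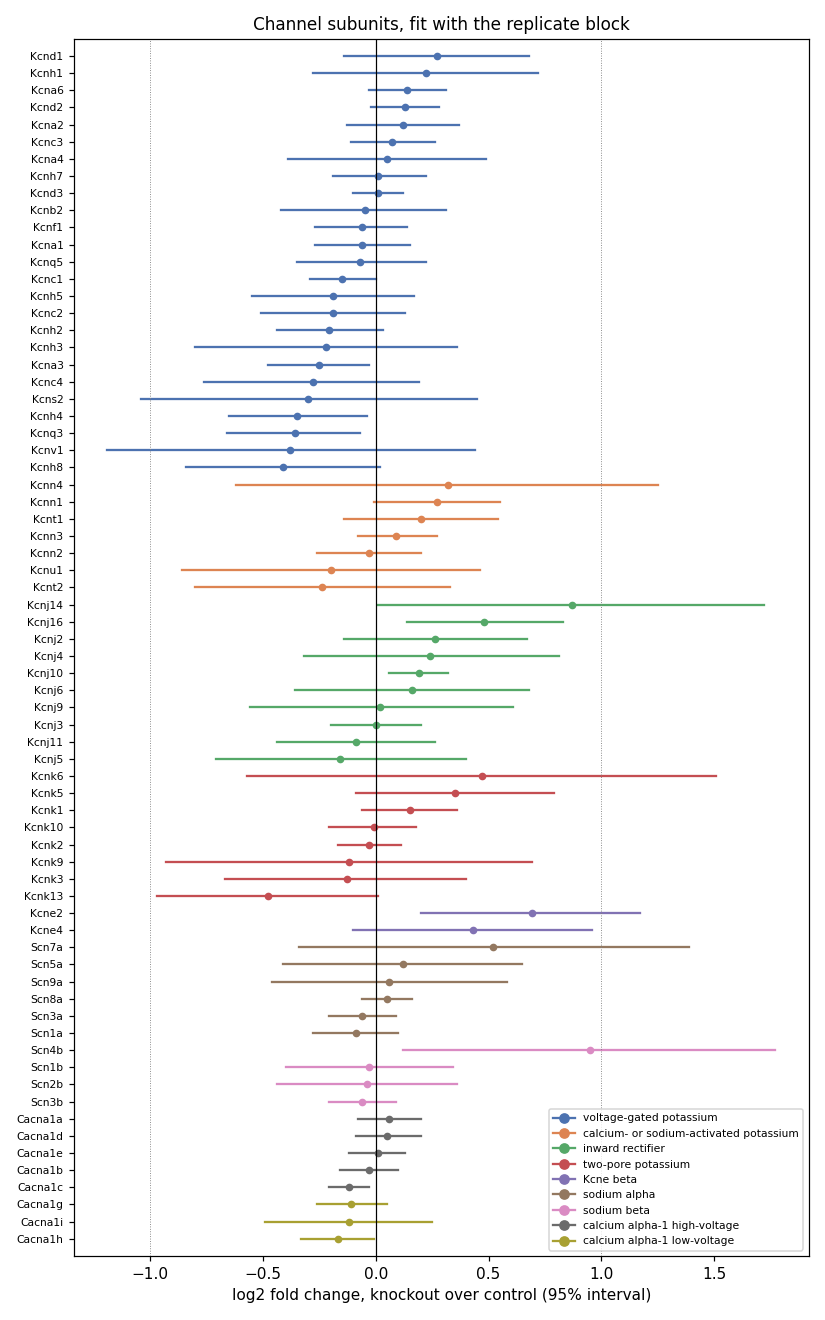
Log2 fold change of 70 of the 73 channel subunits, knockout over control, from edgeR with the replicate block; points are estimates, bars 95% intervals, colours channel classes, and dotted lines mark -1 and 1. Estimates run from -0.48 to 0.95, and 62 of the 70 intervals lie between the dotted lines.

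Whether the replicates separate was read from the values themselves. All 3 knockout libraries lay above all 3 control libraries for 3 members (Kcnd1, Kcnj14 and Kcnk1), or 4.11%, against 2.75% of all tested genes. The opposite separation was seen in 0 members, against 3.60% of all tested genes. The knockout library was the higher of each same-numbered pair in 15 members, or 20.5% beside 19.6% of all tested genes, and the lower of each pair in 11, or 15.1% beside 20.9%. Kcnd1, which encodes a Kv4 pore subunit of A-type current, had 6.15, 6.27 and 6.99 CPM in knockout libraries, against 5.94, 5.76 and 4.49 CPM in control libraries. Kcnk1, for the two-pore channel TWIK-1, had 26.7, 22.8 and 23.5 CPM in knockout libraries, against 21.7, 21.7 and 22.4 CPM in control libraries. Neither passed the test: the blocked adjusted p was 0.502 for Kcnd1 and 0.464 for Kcnk1 (edgeR).

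Divided by exon length, the members spanned a wide range of levels, from 26.1 CPM per kb for Kcnj10 to 0.159 CPM per kb for Kcnk9. Next to Kcnj10 came Kcnd3 at 18.4 CPM per kb, Scn3b at 16.2 CPM per kb, Kcnc1 at 11.9 CPM per kb, Kcnk2 at 11.2 CPM per kb, Kcnk1 at 10.3 CPM per kb and Kcna3 at 10.1 CPM per kb. These are an inward rectifier, an A-type potassium channel, a sodium channel beta subunit, a fast delayed rectifier, a pair of two-pore channels and a Kv1 channel. The voltage-gated potassium channels held 28 of the 73 members and the largest share of summed CPM, 892 ± 62.4 CPM in the knockout and 916 ± 63.0 CPM in the control (SD, n = 3 each). All members together summed to 2291 ± 193 CPM in the knockout and 2308 ± 236 CPM in the control (SD, n = 3 each). In each of the 9 classes the summed CPM of the knockout libraries overlapped that of the control libraries.

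**Figure D2:**
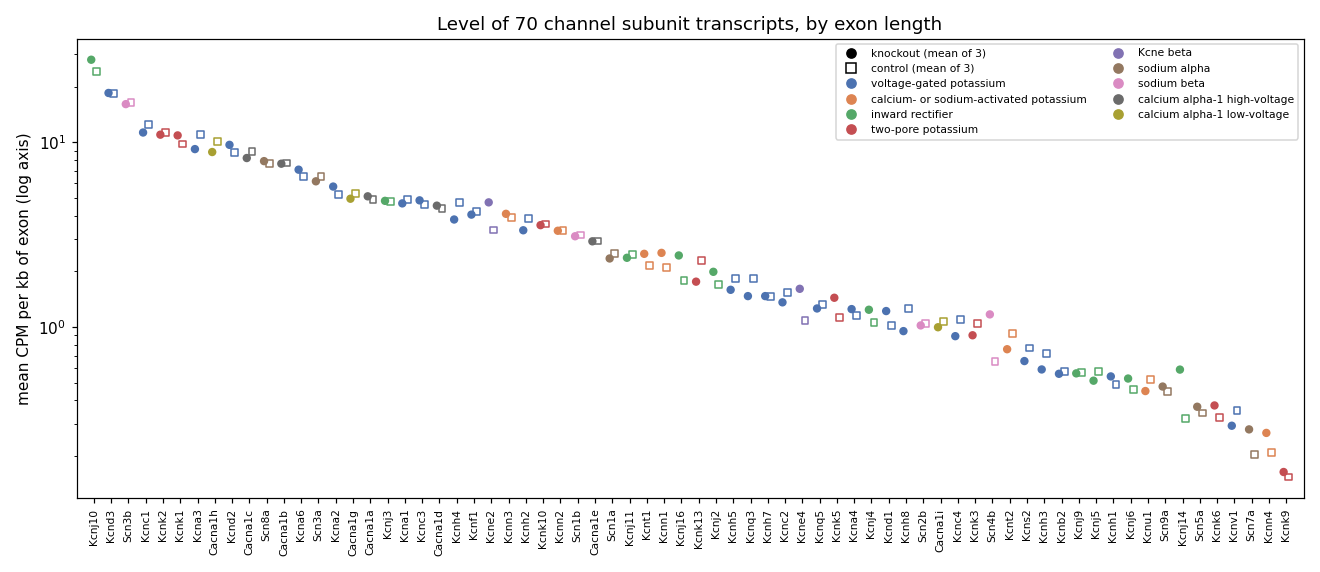
Mean CPM per kb of exon (log axis) of 70 of the 73 channel subunits, ordered by level; filled circles are knockout means and open squares control means (3 libraries each), and colours are channel classes. Kcnj10 leads at 26.1 CPM per kb over all libraries and Kcnk9 is lowest at 0.159.

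The inward rectifiers had 10 of 13 matched genes among the members. Kcnj10 encodes Kir4.1, which holds the resting potential of OPCs and astrocytes and takes up extracellular potassium. Its counts were 209, 116 and 130 CPM in knockout libraries, against 165, 103 and 125 CPM in control libraries. Library 1 was highest in both groups, and each knockout library was above the control library of its number while the groups overlapped. The log2 fold change with the block was 0.19 (SE 0.06, 95% interval 0.06 to 0.32, adjusted p = 0.103, edgeR). Kcnj16 encodes Kir5.1, which joins Kir4.1 in pH-sensitive heteromers, and had 10.9, 7.72 and 10.2 CPM in knockout libraries, against 9.01, 4.50 and 7.57 CPM in control libraries. It followed the same order of libraries, with a blocked log2 fold change of 0.48 (SE 0.15, 95% interval 0.14 to 0.83, adjusted p = 0.129, edgeR). Kcnj14, for the strong rectifier Kir2.4, was scarce at 2.15, 1.21 and 1.44 CPM in knockout libraries, against 0.812, 0.687 and 1.10 CPM in control libraries, with no overlap. Its blocked log2 fold change was 0.87 (SE 0.38, 95% interval 0.01 to 1.72, adjusted p = 0.267, edgeR).

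The summed astrocyte markers moved with both Kcnj10 and Kcnj16. Their summed CPM was 3390, 1831 and 2777 in knockout libraries 1 to 3, against 2895, 1586 and 2478 in control libraries 1 to 3, so it too was highest in library 1, lowest in library 2 and higher in the knockout library of each pair. Singly, 7 of the 12 were highest in library 1 and 11 lowest in library 2 of both groups. With the block 4 of the 12 astrocyte markers rose and 0 fell, among them Gfap (log2 fold change 0.55, adjusted p = 0.00362, edgeR) and the water channel gene Aqp4 (0.33, adjusted p = 0.0104, edgeR). The share of all tested genes called with the block, 3.80%, stands beside this and the later counts of markers. The summed OPC markers also peaked in library 1, at 4938, 2388 and 3757 CPM in knockout libraries, against 4190, 2425 and 3650 CPM in control libraries. Singly, 10 of the 13 were highest in library 1 of both groups. With the block 0 of 13 were called. The smallest adjusted p among them lay just above the threshold, for a marker lower in the knockout. The part of astrocyte RNA in the Kcnj10 and Kcnj16 values was not tested.

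Of the other inward rectifiers, Kcnj3, Kcnj9 and Kcnj6 encode subunits of the G protein-gated channels, and their blocked log2 fold changes were 0.00, 0.02 and 0.16. Kcnj2, for Kir2.1, had 0.26, and Kcnj11, for the pore of ATP-sensitive channels, had -0.09. The adjusted p of each of these was 0.504 or more (edgeR). The rule left out 2 inward rectifiers. Kcnj8, the Kir6.1 subunit of pericytes and vascular muscle, had 0.510, 1.92 and 22.2 CPM in knockout libraries, against 0.185, 1.45 and 16.1 CPM in control libraries. Kcnj13, for Kir7.1 of choroid plexus and other transporting epithelia, had 1.64, 2.28 and 10.1 CPM in knockout libraries, against 2.29, 1.30 and 4.71 CPM in control libraries. Both were highest in library 3 of each group, and neither was called with the block (log2 fold change 0.54 with adjusted p = 0.205 for Kcnj8, and 0.54 with adjusted p = 0.414 for Kcnj13, edgeR).

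RefSeq promoter windows were at hand for 47 of the 73 members. Their median was 14 CG dinucleotides per window, beside 6 over all genes with a window, which were not filtered by level. Of the 28 matched genes under 1 CPM, 23 had a window, and their median was 4. The higher median of the members is thus not a trait of all matched channel genes. No test was made, and the members without a window are not covered. The 250 bases before the annotated start are shown for Kcnj10, the member with the highest level per kb, and for Kcne2, the highest of the Kcne family, with each CG dinucleotide in capitals (RefSeq, GRCm38.p6, 5′ to 3′). The Kcnj10 window is chr1:172340960-172341209 on the plus strand and holds 17 CG, a number that 23.5% of the 32851 windows of all genes reach. The Kcne2 window is chr16:92292139-92292388 on the plus strand and holds 9 CG, which 40.3% of all windows reach. Over all windows the median was 6, and 92.1% held at least 1. CG reads the same on both strands. For Kcne2 the window with the most CG among those listed is shown.
Kcnj10: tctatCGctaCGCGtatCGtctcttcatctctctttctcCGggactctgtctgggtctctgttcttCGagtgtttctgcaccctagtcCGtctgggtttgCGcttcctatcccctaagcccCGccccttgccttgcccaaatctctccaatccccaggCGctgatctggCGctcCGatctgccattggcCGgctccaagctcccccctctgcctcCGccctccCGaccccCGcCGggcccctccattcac
Kcne2: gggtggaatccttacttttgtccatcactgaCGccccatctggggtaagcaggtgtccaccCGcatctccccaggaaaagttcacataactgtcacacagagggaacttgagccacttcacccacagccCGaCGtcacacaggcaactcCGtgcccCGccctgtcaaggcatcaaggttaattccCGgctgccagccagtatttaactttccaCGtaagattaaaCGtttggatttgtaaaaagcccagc

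The Kcne genes encode single-pass beta subunits that change the gating of potassium channel pores, and 2 of 4 were members. Kcne2, which in the choroid plexus partners potassium channels of the epithelium, had 4.77, 3.63 and 16.7 CPM in knockout libraries, against 1.81, 2.52 and 13.4 CPM in control libraries. Library 3 stood far above libraries 1 and 2 in both groups, and each knockout library was above the control library of its number. The blocked log2 fold change was 0.69 (SE 0.22, 95% interval 0.20 to 1.17, adjusted p = 0.123, edgeR). Without knockout library 3, the value in the fit without the block was -0.50, against 0.50 with all libraries. That fit kept control library 3, at 13.4 CPM, without its same-numbered partner. With the block and a whole pair left out, the value was 0.41 without pair 1, 0.73 without pair 2 and 0.96 without pair 3. The summed choroid plexus and ependymal markers were likewise highest in library 3, at 1036, 836 and 2789 in knockout libraries, against 435, 361 and 1910 in control libraries. Ttr makes up most of that sum. Singly, 5 of the 10 markers were highest in library 3 of both groups (Ttr, Folr1, Clic6, Kl and Otx2), whereas the other 5 were highest in library 1 of both groups (Foxj1, Ccdc153, Dynlrb2, Rarres2 and Tmem212). Of these 10 markers 6 rose and 0 fell with the block, and Ttr, the thyroid hormone carrier of the choroid plexus, was at 812, 670 and 2571 CPM in knockout libraries, against 247, 290 and 1746 CPM in control libraries. The endothelial sum and the pericyte and fibroblast sum, given below, were also highest in library 3 of both groups and higher in the knockout of each pair. The part of any of these lists in the Kcne2 values was not tested. Kcne4 was likewise highest in library 3 of both groups, at 2.48, 1.53 and 8.84 CPM in knockout libraries, against 2.10, 1.41 and 5.13 CPM in control libraries (adjusted p = 0.393 with the block, edgeR).

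The two-pore channels, which carry background potassium current, had 8 of 14 matched genes among the members. Kcnk2 encodes TREK-1, which responds to stretch and lipids, and had 58.6, 41.9 and 62.9 CPM in knockout libraries, against 60.4, 40.3 and 67.4 CPM in control libraries. The groups overlapped, and the blocked log2 fold change of -0.03 had a 95% interval of -0.17 to 0.11 (adjusted p = 0.859, edgeR). Kcnk13 encodes THIK-1, the background channel known from microglia. It had 0.546, 9.68 and 6.23 CPM in knockout libraries, against 1.40, 13.2 and 6.86 CPM in control libraries. Library 1 was nearly without the transcript in both groups, and library 2 was highest in both. The blocked log2 fold change was -0.48 (SE 0.22, 95% interval -0.97 to 0.01, adjusted p = 0.281, edgeR).

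The summed microglial markers showed the same order of libraries as Kcnk13. Their summed CPM was 22.9, 321 and 251 in knockout libraries, against 25.4, 333 and 228 in control libraries, and 0 of the 10 were called with the block. Singly, 9 of the 10 were lowest in library 1 of both groups. Kcnk6, for TWIK-2, was also lowest in library 1, at 0.583, 2.24 and 1.85 CPM in knockout libraries, against 0.0738, 2.17 and 1.77 CPM in control libraries. The blocked log2 fold change of Kcnk6 was 0.47 with an interval of -0.57 to 1.51. The part of microglial RNA in either channel's values was not tested.

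**Figure D3:**
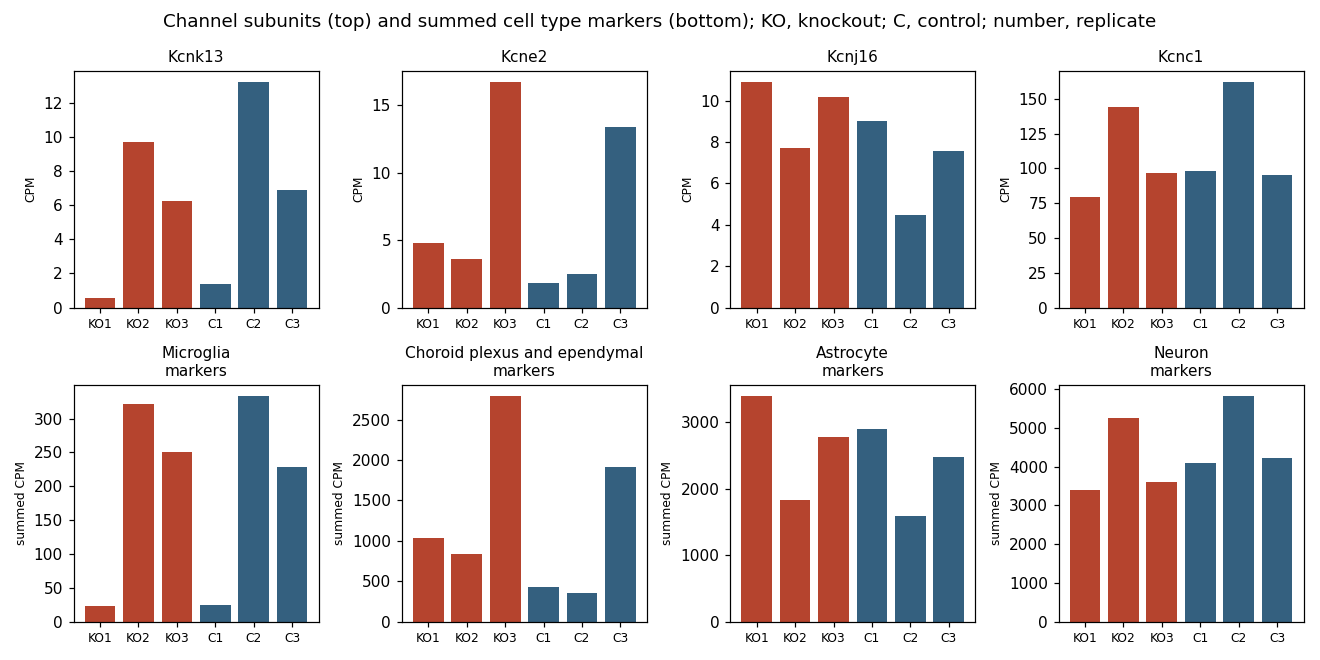
CPM of Kcnk13, Kcne2, Kcnj16 and Kcnc1 (top) above the summed CPM of a marker list whose libraries they resemble (bottom), one bar a library. Knockout libraries (KO1 to KO3, red) stand left of control libraries (C1 to C3, blue). Lists not drawn peaked in the same libraries: the OPC sum in library 1, as Kcnj16 did, and the endothelial and the pericyte and fibroblast sums in library 3, as Kcne2 did. The channels and lists were paired after their values were seen; Kcnk13 and the microglial sum are both lowest in library 1 of each group, at 0.546 CPM and 22.9 CPM in the knockout and 1.40 CPM and 25.4 CPM in the control.

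Among the 28 voltage-gated potassium channel members, 10 had a blocked log2 fold change above 0 and 18 below 0, with a median of -0.06. Kcnd3, for the A-type channel Kv4.3, had 202, 192 and 138 CPM in knockout libraries, against 207, 175 and 146 CPM in control libraries. The groups overlapped almost wholly, and the blocked log2 fold change of 0.01 had a 95% interval of -0.10 to 0.12 (adjusted p = 0.947, edgeR). The other Kv4 members, Kcnd1 and Kcnd2, had 0.27 and 0.13. Kcna3 encodes Kv1.3, a channel linked to OPC proliferation, and had 19.1, 16.9 and 16.4 CPM in knockout libraries, against 22.1, 18.7 and 21.7 CPM in control libraries. Each knockout library was below the control library of its number, and knockout library 1 lay above control library 2. Its blocked log2 fold change was -0.25 (SE 0.10, 95% interval -0.48 to -0.03, adjusted p = 0.218, edgeR).

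The remaining Kv1 members lay nearer to 0. Kcna1, Kcna2, Kcna4 and Kcna6 had blocked log2 fold changes of -0.06, 0.12, 0.05 and 0.14, with adjusted p of 0.386 or more (edgeR). Kcnb2, a Kv2 delayed rectifier, had -0.05. In the Kv3 family, which lets neurons fire fast, Kcnc1 had 79.1, 144 and 96.8 CPM in knockout libraries, against 98.2, 162 and 94.9 CPM in control libraries, highest in library 2 of both groups. The summed neuronal markers were also highest there, as were 14 of the 22 singly, with sums of 3403, 5248 and 3614 CPM in knockout libraries, against 4096, 5817 and 4211 CPM in control libraries. With the block 7 of the 22 neuronal markers fell and 0 rose, while Kcnc1 had a log2 fold change of -0.15 (adjusted p = 0.266, edgeR). The part of neuronal RNA in the Kcnc1 values was not tested.

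The Kv10 to Kv12 members, encoded by Kcnh genes, had 5 of 7 values below 0 and a median of -0.21 with the block. Kcnh8, for a Kv12 channel, had 3.97, 3.84 and 5.17 CPM in knockout libraries, against 4.95, 6.52 and 5.77 CPM in control libraries. It was lower in the knockout of each pair, while knockout library 3 lay above control library 1, and its blocked log2 fold change was -0.41 (SE 0.19, 95% interval -0.84 to 0.02, adjusted p = 0.303, edgeR). Kcnh4 had 9.10, 24.7 and 11.4 CPM in knockout libraries, against 15.4, 27.8 and 12.5 CPM in control libraries. The difference came mostly from library 1, and the adjusted p with the block was 0.221 (edgeR).

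Kv7 channels carry the M-current that damps repeated firing. Kcnq3, a subunit of neuronal M-channels, had 14.3, 28.6 and 22.0 CPM in knockout libraries, against 24.9, 30.6 and 25.6 CPM in control libraries. Here too the gap was widest in library 1, with a blocked log2 fold change of -0.36 (SE 0.13, 95% interval -0.66 to -0.07, adjusted p = 0.181, edgeR). Kcnq5 had -0.07, with an adjusted p of 0.845 (edgeR). Of the silent modifier subunits, which form channels only with other Kv subunits, Kcnv1 was scarce, at 0.328, 2.06 and 1.62 CPM in knockout libraries, against 0.702, 1.91 and 2.23 CPM in control libraries. Its blocked log2 fold change of -0.38 had a 95% interval of -1.19 to 0.44 (adjusted p = 0.651, edgeR), and Kcnf1 and Kcns2 had -0.06 and -0.30.

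The 7 members grouped as calcium- or sodium-activated potassium channels summed to 111 ± 2.34 CPM in the knockout and 105 ± 9.55 CPM in the control (SD, n = 3 each). Kcnu1, of the Slo3 family, was placed in this class by its symbol and not by how it is gated. Kcnn3, for SK3, led the class per kb with 46.5, 30.5 and 51.5 CPM in knockout libraries, against 41.8, 26.8 and 53.6 CPM in control libraries. Library 2 was lowest in both groups, and the blocked log2 fold change of 0.09 had a 95% interval of -0.08 to 0.27 (adjusted p = 0.603, edgeR). Kcnn1, for SK1, ran in another order, highest in library 1 and lowest in library 3 of both groups, with 15.3, 13.0 and 6.42 CPM in knockout libraries, against 12.7, 11.2 and 5.02 CPM in control libraries. Kcnt1 and Kcnt2, for the sodium-activated channels, had blocked log2 fold changes of 0.20 and -0.24, and the adjusted p of every member of the class was 0.295 or more (edgeR).

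The sodium channels comprised 6 alpha and 4 beta subunits. Scn8a encodes Nav1.6, the main channel of mature nodes of Ranvier, and had 125, 132 and 117 CPM in knockout libraries, against 112, 133 and 117 CPM in control libraries. It was among the steadiest members, with a blocked log2 fold change of 0.05 and a 95% interval of -0.06 to 0.16 (adjusted p = 0.673, edgeR). Scn3a, for the embryonic channel Nav1.3, ran with the replicate number instead, at 53.6, 74.1 and 102 CPM in knockout libraries, against 52.7, 72.3 and 120 CPM in control libraries. The gene for Nav1.2 is listed as Scn2a1, a symbol that the rule does not take, and had 14.5, 27.6 and 38.8 CPM in knockout libraries, against 15.5, 20.9 and 46.2 CPM in control libraries (adjusted p = 0.971 with the block, edgeR).

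Beta subunits of sodium channels tune gating and act in cell adhesion. Scn3b had 53.4, 107 and 103 CPM in knockout libraries, against 62.4, 100 and 106 CPM in control libraries, lowest in library 1 of both groups. Its blocked log2 fold change of -0.06 had a 95% interval of -0.21 to 0.09 (adjusted p = 0.718, edgeR). Scn4b, the subunit linked to resurgent sodium current, had the highest blocked fold change of the members with all libraries in the fit. It stood at 6.88, 8.05 and 2.53 CPM in knockout libraries, against 6.35, 1.64 and 1.70 CPM in control libraries. Most of the difference lay in library 2, since knockout library 1 and control library 1 were close together. The blocked log2 fold change was 0.95 (SE 0.37, 95% interval 0.12 to 1.77, adjusted p = 0.208, edgeR). It was 0.31 without pair 2, where Kcnj14 had 0.89 and Kcne2 had 0.73, and 1.48 without pair 1.

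The calcium channel alpha-1 subunits had 8 members. Cacna1c, for the L-type channel Cav1.2, which carries depolarisation-driven calcium entry in OPCs, had 141, 247 and 134 CPM in knockout libraries, against 150, 265 and 151 CPM in control libraries. Library 2 was far above the others in both groups, and each knockout library was below the control library of its number. The blocked log2 fold change was -0.12 (SE 0.04, 95% interval -0.21 to -0.03, adjusted p = 0.13, edgeR). The other high-voltage members Cacna1a, Cacna1b, Cacna1d and Cacna1e, for P/Q-type, N-type, L-type and R-type channels, had blocked log2 fold changes of 0.06, -0.03, 0.05 and 0.01. Each of their intervals lay within 0.20 of 0.

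The low-voltage or T-type members Cacna1g, Cacna1h and Cacna1i had blocked log2 fold changes of -0.11, -0.17 and -0.12. Cacna1h, for Cav3.2, had 74.5, 79.8 and 105 CPM in knockout libraries, against 85.4, 77.8 and 133 CPM in control libraries. The knockout library was lower in pairs 1 and 3 and slightly higher in pair 2, and the 95% interval was -0.33 to -0.01 (SE 0.07, adjusted p = 0.255, edgeR). With a GC correction added to the block, the log2 fold change of Cacna1h was only -0.03 (adjusted p = 0.89, edgeR). The class summed to 146 ± 36.6 CPM in the knockout and 162 ± 44.5 CPM in the control (SD, n = 3 each).

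**Figure D4:**
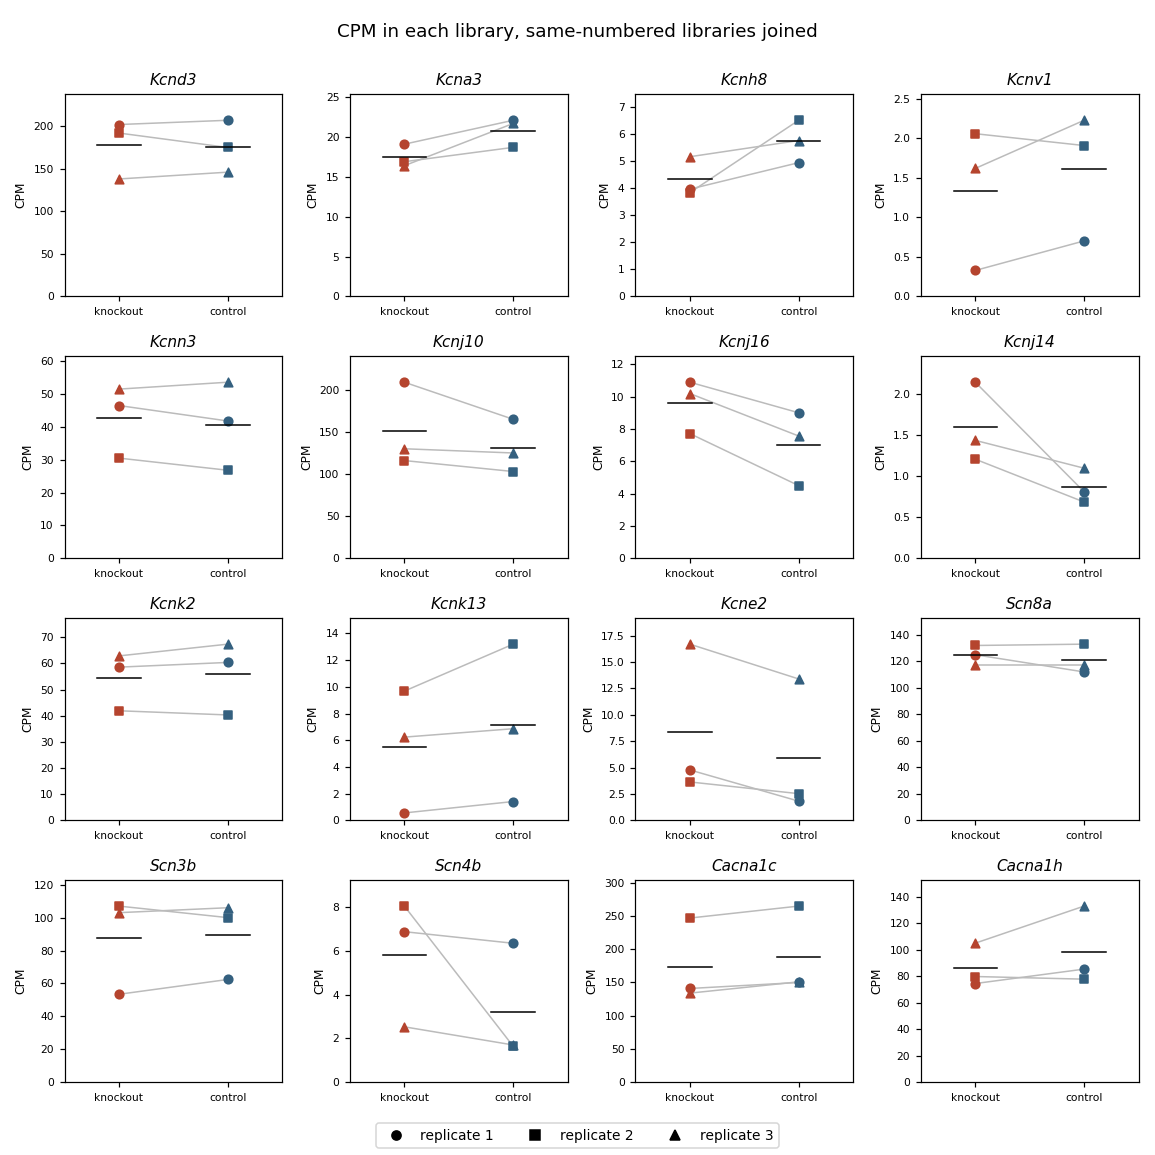
CPM of 16 channel subunits in each library, knockout left and control right; symbols mark replicate numbers, grey lines join same-numbered libraries and black bars are group means (n = 3). Apart from Kcnj14, at 1.21 to 2.15 CPM in the knockout and 0.687 to 1.10 CPM in the control, the groups of each panel overlap.

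The range between replicate numbers was larger than the difference between genotypes for 68 of the 73 members, or 93.2% beside 90.1% of all tested genes. The exceptions were Kcna3, Kcnd1, Kcnh8, Kcnj14 and Kcnk1. For the median member the number means differed 1.62-fold between the highest and the lowest number, against 1.33-fold for the median tested gene, while the pairwise knockout to control difference was 1.09-fold for members and 1.07-fold for all tested genes. A range over 3 numbers is wider than a single difference by its construction, so the comparison with all genes carries the information. Above 2-fold between numbers were 19 members, or 26%, beside 14.4% of all tested genes. The deviations of same-numbered libraries from their group means correlated at 0.821, 0.735 and 0.738 over the 73 members, and at 0.712, 0.682 and 0.654 over all tested genes; genes are not independent replicates.

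The order of the 3 numbers was the same in both groups for 37 members, or 50.7% beside 51.5% of all tested genes. In both groups 28 members were lowest in library 1, or 38.4% beside 20.7% of all tested genes, and 29 were highest in library 3, or 39.7% beside 25.2%. Cacna1e had 44.8, 63.6 and 112 CPM in knockout libraries, against 42.8, 64.9 and 113 CPM in control libraries, an almost equal course in both genotypes. The opposite course, highest in library 1 of both groups, was shown by 9 members (Kcna3, Kcnd3, Kcnh5, Kcnj10, Kcnj16, Kcnj5, Kcnk10, Kcnk5 and Kcnn1), or 12.3% beside 19.8% of all tested genes. What a replicate number stands for is not stated, and these counts carry no test.

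**Figure D5:**
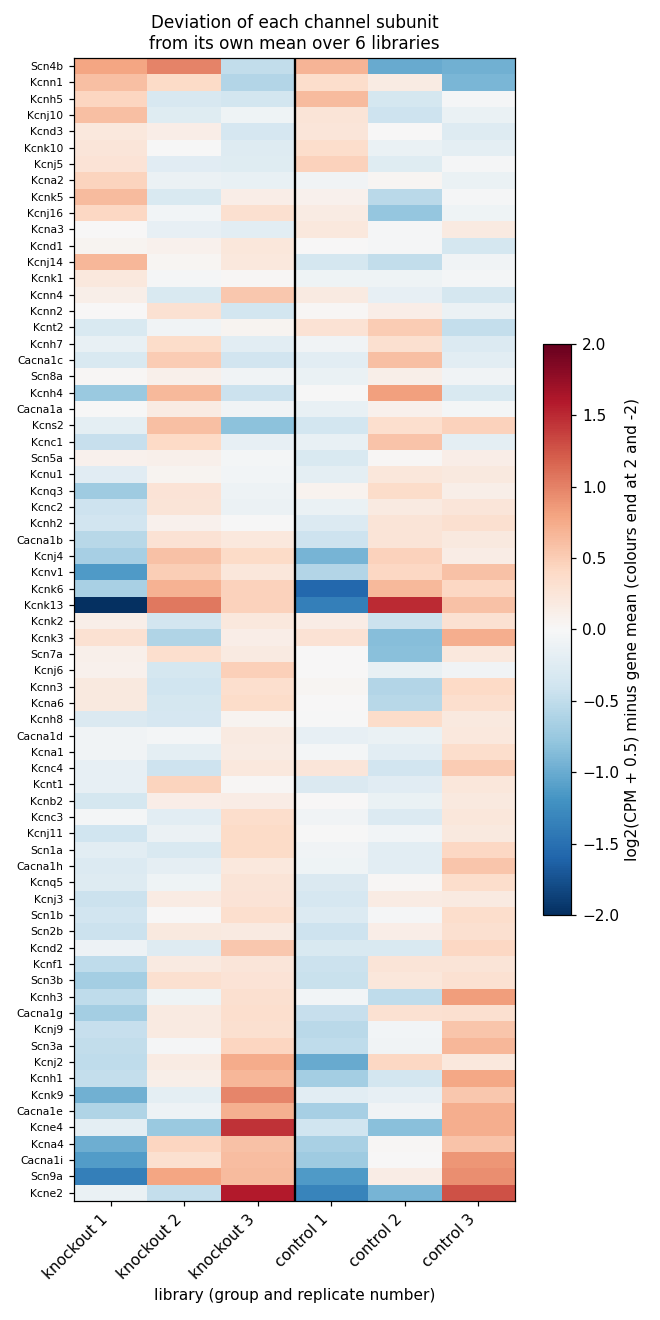
Deviation of log2(CPM + 0.5) from the member's own mean over the 6 libraries, for 70 of the 73 members, knockout libraries left of the line and control libraries right of it; red is above and blue below the mean, and members are grouped by the number in which they were highest. Columns of the same number resemble each other across the line, as Cacna1e shows at 112 CPM in knockout library 3 and 113 CPM in control library 3.

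Partners of the pores were taken from a list of 53 auxiliary subunits and related channels, of which 50 were tested. With the block 0 rose, 1 fell and 49 were not called, beside 3.80% of all tested genes called. The median log2 fold change was -0.04. Without the block 0 were called by edgeR. The gene that fell was Hcn4, a pacemaker channel opened by hyperpolarisation. It had 15.3, 21.9 and 21.8 CPM in knockout libraries, against 26.8, 27.5 and 27.4 CPM in control libraries, without overlap. Its log2 fold change was -0.49 (SE 0.11, 95% interval -0.74 to -0.23, adjusted p = 0.0494, edgeR). That is just past the threshold, and the call was lost in 8 of the 11 alternatives with the block, whose adjusted p lay between 0.0131 and 0.187. The gap was widest in library 1, and without that pair the log2 fold change was -0.32. Its relative Hcn2 had 7.76, 14.5 and 11.3 CPM in knockout libraries, against 13.8, 17.5 and 15.8 CPM in control libraries (log2 fold change -0.52, adjusted p = 0.068, edgeR). Hcn3 had -0.18. Neuronal markers, 7 of 22 of which fell with the block, were given above, and their part in the Hcn4 and Hcn2 values was not tested.

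Calcium channel beta subunits, which bring alpha-1 subunits to the membrane, had blocked log2 fold changes of -0.15 for Cacnb1, -0.03 for Cacnb2, -0.16 for Cacnb3 and -0.01 for Cacnb4. Cacng4, which is also on the list of OPC markers, had 82.2, 70.1 and 62.9 CPM in knockout libraries, against 93.0, 75.4 and 72.1 CPM in control libraries, lower in each pair (log2 fold change -0.16, adjusted p = 0.159, edgeR). Abcc9, the sulfonylurea receptor that pairs with Kcnj8, had 1.09, 3.60 and 62.9 CPM in knockout libraries, against 0.517, 1.98 and 47.8 CPM in control libraries. Abcc9 was higher in the knockout of each pair and missed the threshold (log2 fold change 0.60, adjusted p = 0.0543, edgeR). Its level, like that of Kcnj8, lay almost wholly in library 3 of both groups. The summed pericyte and fibroblast markers were highest there as well, at 429, 216 and 978 CPM in knockout libraries, against 413, 168 and 721 CPM in control libraries. Singly, 9 of the 12 were highest in library 3 of both groups. The other 3 were highest in library 1 of both (Acta2, Tagln and Cspg4, which is also on the OPC list). With the block 2 of 12 rose. The part of pericyte and fibroblast RNA in the Abcc9 and Kcnj8 values was not tested.

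Endothelial and oligodendrocyte markers complete the check of other cells. Of 12 endothelial markers 10 rose and 0 fell with the block, with sums of 147, 53.9 and 363 CPM in knockout libraries, against 70.6, 23.4 and 110 CPM in control libraries. Oligodendrocyte markers summed to 253 to 672 CPM in knockout libraries and 208 to 882 CPM in control libraries, and 0 of 8 tested were called.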

How the data were processed

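Expression was measured by RNA-seq in 3 knockout and 3 control libraries. The authors deposited whole-number counts per gene symbol, not normalised. HISAT2 2.2.1, HTSeq 0.12.4, DESeq2 1.26.0 and mm10 are named in the submitters' processing notes without their roles; the gene annotation and strand setting are not stated there or in the labels. Exons of 20 members overlap those of a gene on the other strand, whose reads cannot be told apart if strand was ignored. The 5 summary entries of each file name no gene and were left out (mean shares of read pairs in knockout and control: 20.8% and 19.7% in no gene, 1.45% and 1.46% ambiguous, 3.83% and 3.11% of low alignment quality, 1.25% and 1.03% unaligned, 3.41% and 3.46% aligned more than once).

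The values of 3 members and of 1 listed gene are not reported here. Members and lists were chosen with earlier results of these data known. Named were the member highest per kb in each class, those called, the 3 highest and 3 lowest fold changes with the block and the 5 smallest p without it; further members and markers given by value were picked after their values were seen. TMM scaling was used, and the test was that of edgeR 4.0.16 (R 4.3.3; two-sided quasi-likelihood test, Benjamini-Hochberg over 15906 genes, adjusted p under 0.05); CPM values are TMM-scaled. Intervals combine the standard error, taken from the F statistic, with the t quantile at edgeR's total degrees of freedom. The biological coefficient of variation was 0.315 without and 0.104 with the replicate block. The labels give both groups numbers 1 to 3; same-numbered libraries correlated above 0.1 in all 3 pairs, from the data, so the numbers were taken to pair them. Exon lengths came from the GENCODE annotation of GRCm38 and cover 73 of 73 members; they hold all annotated exons, so CPM per kb understates genes with long unused exons. Alternatives were DESeq2 1.42.0, limma-voom 3.58.1, other scalings, filters and thresholds, a GC correction and leaving out libraries.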

Additional observations from a re-analysis of the deposited data

Results flagged for a closer look

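Of the 5 summary entries of the count tables, which enter no comparison above, 3 had knockout libraries all above the control libraries. Read pairs assigned to no gene made up 20.8% of pairs on average in the knockout (20.4% to 21.3%), against 18.9% to 20.1% in the control. Pairs of low alignment quality made up 3.83% (3.60% to 4.09%) in the knockout, against 2.91% to 3.29% in the control. Unaligned pairs made up 1.25% (1.16% to 1.39%) in the knockout, against 0.962% to 1.14% in the control. The shares of ambiguous pairs and of pairs aligned more than once overlapped between the groups. The part of the 3 shares in the channel values was not tested.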

How the results depend on the processing

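In all 27 alternatives 0 channel members were called, and the smallest adjusted p of a member was 0.0549, for Kcne2 with the block and no filter on low counts. The number of all genes called, 0 in edgeR without the block, was 20 with DESeq2. With the replicate block it was 604, and 671 with DESeq2, 712 with limma-voom, 573 with DESeq2 size factors, 502 with library totals, 536 with upper quartile scaling, 1034 without a filter, 435 at a mean of at least 5 CPM, 1102 at an adjusted p under 0.1 and 388 with a GC correction. Leaving out a library gave 0 genes without the block, and leaving out pair 1, 2 or 3 gave 444, 521 and 174 genes with it. The causes were not tested. The members' median log2 fold change moved between -0.137 without knockout library 3 and 0.134 without control library 3, and the split of 34 above and 39 below 0 became 24 and 49, or 53 and 20. With library totals the split was 41 and 32, with a shift of 0.027 in the median of all genes.

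Of 426 values of 16 named members, 0 were called and 25 changed sign, all of them where a library or pair was left out. The lowest and highest log2 fold changes there were -0.50 and 1.95 for Kcne2, -0.46 and 0.21 for Cacna1c, -0.36 and 0.09 for Cacna1h, -0.16 and 0.32 for Kcnn3, -0.09 and 0.41 for Kcnj10, 0.00 and 0.12 for Scn8a, -0.23 and 0.23 for Scn3b, -0.23 and 0.12 for Kcnk2, -0.10 and 0.16 for Kcnd3, -1.08 and 0.41 for Kcnk13, and -0.73 and 0.19 for Kcnv1. With the block, Scn3b had 0.03 without pair 1, Kcnk2 had 0.01 without pair 3 and Kcnd3 had -0.06 without pair 2. Kcna3, Kcnh8, Kcnj14, Kcnj16 and Scn4b kept their sign in all these fits. The summed CPM of the Kcne members, knockout over control, was 1.44 and ranged from 0.705 without knockout library 3 to 3.22 without control library 3. This check was chosen after seeing the data. Library 3 held most of the sum in both groups, so leaving it out of a single group moves the ratio by construction. By pair the knockout was the higher each time: 7.25 against 3.91, 5.16 against 3.93 and 25.5 against 18.5 CPM.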
